A study of Carassius auratus with 6 samples.

Results

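To describe the enzymes that remove reactive oxygen species and keep cellular thiols reduced, mRNA libraries of golden and of greenish grey skin of crucian carp (Carassius auratus) were analyzed for the antioxidant and glutathione enzymes. Members were all rows of the deposited gene table whose product name began with glutathione, peroxiredoxin, superoxide dismutase, extracellular superoxide dismutase, catalase, thioredoxin, glutaredoxin, glutamate--cysteine ligase or heme oxygenase. A total of 173 of the 83088 gene rows met this rule, of which 21 were not protein coding genes in the RefSeq annotation of the assembly ASM336829v1. Of the 173, 121 had a mean of at least 1 FPKM (fragments counted on a gene, scaled by its length and by library size) over the 6 libraries and were tested, as were 26421 genes in all. The other 52 lay below this limit, and 26 of them had no count in any library. The limit was set on the mean over both colours, so a member high in a single colour could pass it.

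The fish, the golden-back crucian carp, is a natural colour mutant whose body bears both golden and greenish grey skin. The libraries comprised 3 of golden and 3 of greenish grey skin, all from female fish, and no treatment was named. The study's methods describe fish of a given age from which skin of both colours was taken, but for its small RNA libraries; for these mRNA libraries, which it calls earlier data, neither the age nor the number of fish was stated. Whether the replicates of a colour came from separate fish is therefore not known, and p-values measure the spread between these 6 libraries only. Each library carried a replicate number from 1 to 3, shared by a golden and a greenish grey library.

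Superoxide dismutases convert superoxide to hydrogen peroxide, which catalase, glutathione peroxidases and peroxiredoxins reduce further. Glutathione peroxidases draw their electrons from glutathione, which is built by glutamate--cysteine ligase and glutathione synthetase and reduced again by glutathione reductase. Most peroxiredoxins draw theirs from thioredoxin, which thioredoxin reductase reduces at the cost of NADPH. Glutathione S-transferases couple glutathione to reactive compounds, and heme oxygenases break heme down to biliverdin, carbon monoxide and iron. In skin, pigment synthesis and light exposure are known sources of reactive oxygen species. Most of these enzymes are encoded by several gene copies in this fish, whose lineage underwent a genome duplication. How the single copies arose was not tested. How reads that matched several copies were assigned was not given in the sources used here, so the split of a total between near-identical copies is uncertain.

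Total counts ranged from 51493103 to 67595616 per library. The libraries differed in tissue make-up as read from marker genes. Genes of a skeletal muscle list (175 genes, 13 of them at 0 in every library) accounted for 13.2%, 7.63% and 3.29% of all counted fragments in golden libraries 1, 2 and 3, against 8.87%, 2.56% and 3.51% in greenish grey libraries 1, 2 and 3. Genes of an epidermis list (91 genes, keratins among them) took 0.434% to 2.72% in golden and 0.856% to 2.36% in greenish grey libraries, so the labelled tissue was represented in all 6. Genes of a melanophore list (20 genes, 1 at 0 in every library) took 0.00248% to 0.00338% in golden and 0.00978% to 0.0254% in greenish grey libraries, without overlap. Within this list the summed FPKM of tyrosinase overlapped (1.78 in golden library 3, 1.74 in greenish grey library 2). So did that of L-dopachrome tautomerase (0.339 and 0.190 in the same libraries), while the other markers of the list did not overlap. The shares of an endothelium list (8 genes, 1 at 0 in every library) did not overlap either, at 0.00514% to 0.00825% in golden and 0.00893% to 0.0119% in greenish grey libraries. These shares lack the factors that normalise the libraries in the fits (0.751 in golden library 1, 1.15 in greenish grey library 3). Divided by those factors, the endothelium shares overlapped and the melanophore shares did not. Lists for dermal fibroblasts (0.112% to 0.316% in golden and 0.173% to 0.868% in greenish grey), iridophores (0.00312% to 0.0124% and 0.0109% to 0.0203%) and xanthophores (0.00159% to 0.00648% and 0.00419% to 0.00653%, in the same order) overlapped. The part of these cell types in the results below was not tested, other than by a fit with the muscle share as a covariate. Markers of the muscle list did not all vary together. In greenish grey libraries 1 and 2 the troponins summed to 9785 and 9473 FPKM. The fast skeletal muscle myosin heavy chains summed to 6674 and 440 FPKM in the same libraries. The muscle share is therefore an uncertain measure of muscle content. In whole skin, fewer cells of a type and less RNA per cell cannot be told apart.

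Most antioxidant and glutathione enzymes differed by less than 2-fold between golden and greenish grey skin. All members together made up 0.597%, 0.618% and 0.564% of the total count of golden libraries, against 0.615%, 0.752% and 0.645% in greenish grey libraries. Golden library 2 lay above greenish grey library 1 by this measure. In FPKM, which is scaled by length, they summed to 3827, 4001 and 3954 in golden libraries, against 4070.04, 5198 and 4475 in greenish grey libraries, without overlap. Neither sum was tested, and neither was scaled by the factors that normalise the libraries in the fits. Those factors ran from 0.751 to 1.15 in golden and from 0.916 to 1.15 in greenish grey libraries. Golden library 1 had a factor of 0.751 and greenish grey library 3 had 1.15. Divided by these factors, the FPKM sum of golden library 1 was the higher, so the groups overlapped on that scale. The median log2 fold change (golden minus greenish grey) of the 121 tested members was -0.0066, against 0.031 over all genes tested. Within numbers 1, 2 and 3 the median of the members was 0.088, -0.20 and -0.049. The log2 fold changes ran from -1.55 to 0.86, 117 members differed by less than 2-fold, and the median standard error was 0.42. The share of all genes tested that differed by less than 2-fold was not counted, so this need not be a trait of these enzymes. Of the 121, 62 (51.2%) had a log2 fold change below 0, as had 46.8% of all genes tested. With the replicate number as a block the median log2 fold change was -0.039 for the members and -0.0049 for all genes tested.

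By the quasi-likelihood test of edgeR, with p-values adjusted after Benjamini and Hochberg over all genes tested, 0 members had an adjusted p under 0.05, as had 0% of all genes, and the lowest adjusted p of a member was 0.9998. At an unadjusted p under 0.05, 2 members (1.65%) were called, against 4.4% of all genes tested. Both were lower in golden skin, as were 2.43% of all genes at this threshold. A single member (0.826%) was also past 2-fold, against 2.77% of all genes (1.51% in its direction). The replicate numbers paired the libraries by the correlation of their deviations, and a fit with the replicate number as a block called 10 members (8.26%) at an unadjusted p under 0.05, against 13% of all genes. Of the 10, 9 (7.44%) were lower and 1 (0.826%) was higher in golden skin, against 7.02% and 5.95% of all genes. This block put 4 members (3.31%) past 2-fold, against 5.05% of all genes, and each of the 4 had its lower level in golden skin, as had 2.63% of all genes. The lowest adjusted p of a member under the block was 0.194, and 0.00378% of all genes passed 0.05. DESeq2 called 5 members (4.13%) at an unadjusted p under 0.05, against 7% of all genes. All 5 were lower in golden skin, as were 3.43% of all genes, and 2 (1.65%) were also past 2-fold, against 3.84%. It called 0 members but 0.776% of all genes at an adjusted p under 0.05. In each of these counts at an unadjusted p, both directions together, the share of members lay below that over all genes. The directions below are therefore given as measured values, none of which passed the adjusted threshold.

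**Figure D1:**
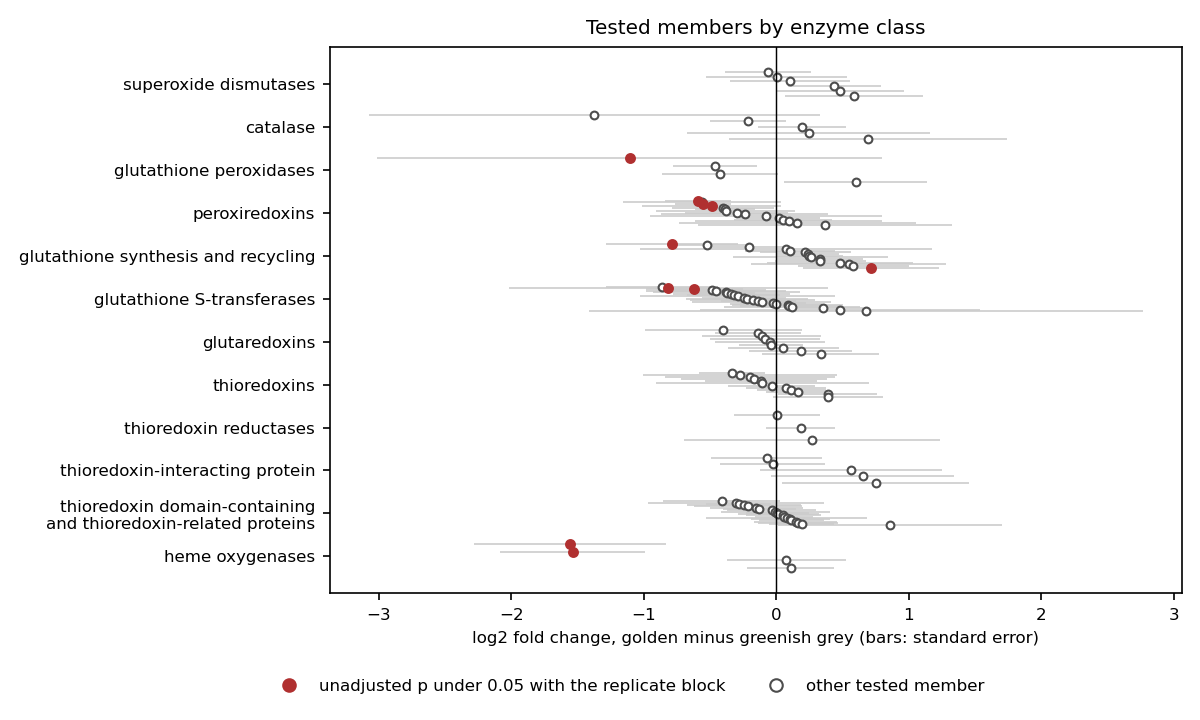
Log2 fold change of each of the 121 tested members (points, golden minus greenish grey, edgeR without the replicate block) by enzyme class, with its standard error as a grey bar. Filled points mark the 10 members at an unadjusted p under 0.05 with the replicate block, and 117 of the 121 points lie within 1 log2 unit of 0.

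Among tested members, the largest fold changes in the fit without the replicate block were those of LOC113095140 and LOC113046688, named heme oxygenase-like, whose levels were lower in golden skin. With the block, the catalase pseudogene LOC113074842 had a larger one (log2 fold change -1.84, unadjusted p = 0.1503, edgeR). LOC113046688 (heme oxygenase-like, chromosome 28, 8361699 to 8364620 on ASM336829v1) had 1.43, 6.93 and 8.56 FPKM in golden libraries 1, 2 and 3, against 9.81, 21.5 and 19.8 FPKM in greenish grey libraries 1, 2 and 3. Every golden library lay below every greenish grey library. The log2 fold change was -1.54 ± 0.55 (SE, n = 3 each, edgeR, unadjusted p = 0.0278), and it was -1.71 with the replicate block (unadjusted p = 0.00164, adjusted p = 0.211). Without greenish grey replicate 2 the unadjusted p was 0.0812, and without greenish grey replicate 3 it was 0.0636.

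LOC113095140 (heme oxygenase-like isoform X1) was the most abundant heme oxygenase, with 22.9, 137 and 107 FPKM in golden libraries, against 100.2, 494 and 241 FPKM in greenish grey libraries. The golden library was the lower of the pair at each of the 3 numbers, yet golden libraries 2 and 3 lay above greenish grey library 1. The log2 fold change was -1.55 ± 0.72 (SE, n = 3 each, edgeR, unadjusted p = 0.0715), and the unadjusted p was 0.00100 with the replicate block (adjusted p = 0.194). The log2 fold change was -0.88 without greenish grey replicate 2, the library with the highest level.

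A further copy, LOC113051898 (heme oxygenase-like), lay below the level needed for testing, with 0.0956, 0.504 and 0.656 FPKM in golden libraries, against 1.31, 1.54 and 1.21 FPKM in greenish grey libraries. The groups did not overlap, and its unadjusted p was 0.0459 (edgeR, adjusted p = 0.942) when genes of all levels were fitted. Heme oxygenase 2 is the constitutive form in mammals. Its main copy LOC113039962 had 39.8, 33.3 and 20.8 FPKM in golden libraries, against 38.4, 38.1 and 26.02 FPKM in greenish grey libraries (log2 fold change 0.08 ± 0.45, SE, n = 3 each), and the groups overlapped. The 4 heme oxygenase members tested and the 3 below the limit summed to 128 ± 57.6 FPKM in golden and 333 ± 206 FPKM in greenish grey skin (SD, n = 3 each), and the sums overlapped.

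Markers of erythrocytes and of macrophages and neutrophils varied among the same libraries. Genes of an erythrocyte list (35 genes, 6 at 0 in every library, hemoglobins among them) made up 1.78%, 0.973% and 0.196% of the total count of golden libraries, against 2.30%, 0.213% and 0.113% in greenish grey libraries. Genes of a macrophage and neutrophil list (65 genes, 25 at 0 in every library) took 0.0191% to 0.0518% in golden and 0.0266% to 0.0391% in greenish grey libraries. Both lists overlapped between the colours, and their part in the heme oxygenase values was not tested. With the muscle share as a covariate the log2 fold change of LOC113046688 was -1.17 (unadjusted p = 0.0261, edgeR). That of LOC113095140 was -0.81 in the same fit (unadjusted p = 0.2325, edgeR).

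**Figure D2:**
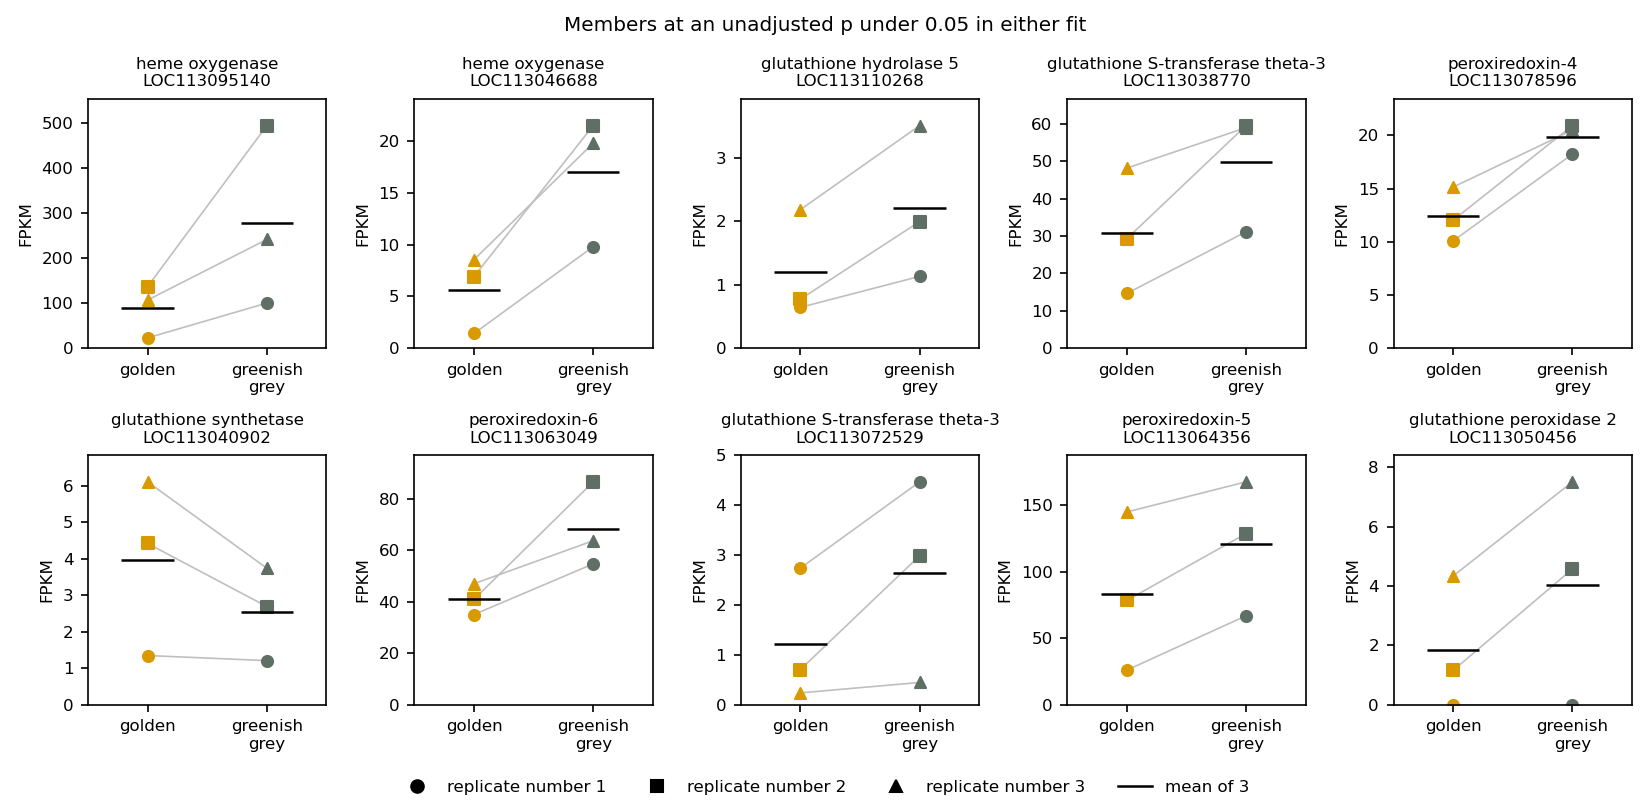
FPKM of the 10 members at an unadjusted p under 0.05 in either fit, in golden (left) and greenish grey (right) skin, with a panel and a vertical axis starting at 0 for each member, a grey line joining libraries of the same replicate number and a black bar at the mean of 3. In 9 panels the greenish grey library is at or above the golden library of its number, and in the panel of glutathione synthetase (LOC113040902) it is below it.

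Peroxiredoxins, which reduce peroxides at a reactive cysteine, were measured by 17 members. Of these 15 were tested and 10 had a log2 fold change below 0, as had 46.8% of all genes tested. Together they summed to 633 ± 95.7 FPKM in golden and 811 ± 4.39 FPKM in greenish grey skin (SD, n = 3 each), and each golden sum lay below each greenish grey sum. This sum followed the members of high abundance, and it was not tested. It lacked the normalisation between libraries that the fits use. Golden library 1 had a sum of 680 FPKM and a factor of 0.751, against 811 FPKM and 1.15 in greenish grey library 3. Divided by these factors, golden library 1 lay above greenish grey library 3, so the groups overlapped on that scale.

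Peroxiredoxin-4 is the form of the endoplasmic reticulum. Its copy LOC113078596 had 10.1, 12.03 and 15.1 FPKM in golden libraries, against 18.2, 20.9 and 20.5 FPKM in greenish grey libraries, without overlap. The log2 fold change was -0.55 ± 0.21 (SE, n = 3 each, edgeR, unadjusted p = 0.0377, and 0.0225 with the replicate block), and with any single library left out the unadjusted p lay above 0.05. The copy LOC113068032 did not overlap between the colours either, with 9.04, 12.8 and 13.4 FPKM in golden libraries, against 14.8, 19.8 and 15.7 FPKM in greenish grey libraries (unadjusted p = 0.136, edgeR). The copy LOC113069982 was low, at 1.38, 1.73 and 2.598 FPKM in golden libraries, against 1.59, 3.42 and 3.29 FPKM in greenish grey libraries, and the groups overlapped.

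Peroxiredoxin-6 acts with glutathione and also repairs membrane lipids. LOC113063049 (peroxiredoxin-6-like, chromosome 45, 6743343 to 6748299) had 34.97, 40.9 and 46.9 FPKM in golden libraries, against 54.7, 86.5 and 63.6 FPKM in greenish grey libraries. All golden libraries lay below all greenish grey libraries, and the log2 fold change was -0.59 ± 0.25 (SE, n = 3 each, edgeR, unadjusted p = 0.0526, and 0.0336 with the replicate block). The other tested copy, LOC113121147, had 17, 30.04 and 48.9 FPKM in golden libraries, against 21.8, 43.6 and 61.8 FPKM in greenish grey libraries, so each number gave a lower golden value while the groups overlapped.

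Peroxiredoxin-5 of mitochondria was the most abundant of the peroxiredoxins, and its copies did not vary together. LOC113064355 had 43.5, 116 and 222 FPKM in golden libraries, against 87.7, 187 and 244 FPKM in greenish grey libraries, and LOC113064356, whose end lies 47644 bases from it on chromosome 46, had 25.9, 78.3 and 145 FPKM in golden libraries, against 66.7, 129 and 167 FPKM in greenish grey libraries. Both were lowest in the libraries numbered 1. LOC113038524 on chromosome 21 was highest there, with 162, 76.1 and 47.3 FPKM in golden libraries, against 146, 115 and 56.3 FPKM in greenish grey libraries. With the replicate block LOC113064356 had a log2 fold change of -0.62 (unadjusted p = 0.0468), against -0.49 ± 0.52 (SE, n = 3 each, unadjusted p = 0.381) without it in edgeR.

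The mitochondrial thioredoxin-dependent peroxide reductase, also known as peroxiredoxin-3, was high in the libraries numbered 1 in both copies. LOC113057128 had 145, 38.1 and 33.1 FPKM in golden libraries, against 156, 68.8 and 46.7 FPKM in greenish grey libraries. LOC113071225 had 131, 40.4 and 29.2 FPKM in golden libraries, against 122, 23.2 and 37.1 FPKM in greenish grey libraries. Of the 5 peroxiredoxin-1 copies, the cytosolic form, LOC113049239 was highest in the libraries numbered 1 (64.6, 39.9 and 24.8 FPKM in golden, against 88.8, 51.5 and 35.04 FPKM in greenish grey libraries), whereas LOC113038621 was lowest there (2.94, 6.86 and 33.4 FPKM in golden, against 2.81, 17.2 and 19.5 FPKM in greenish grey libraries).

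**Figure D3:**
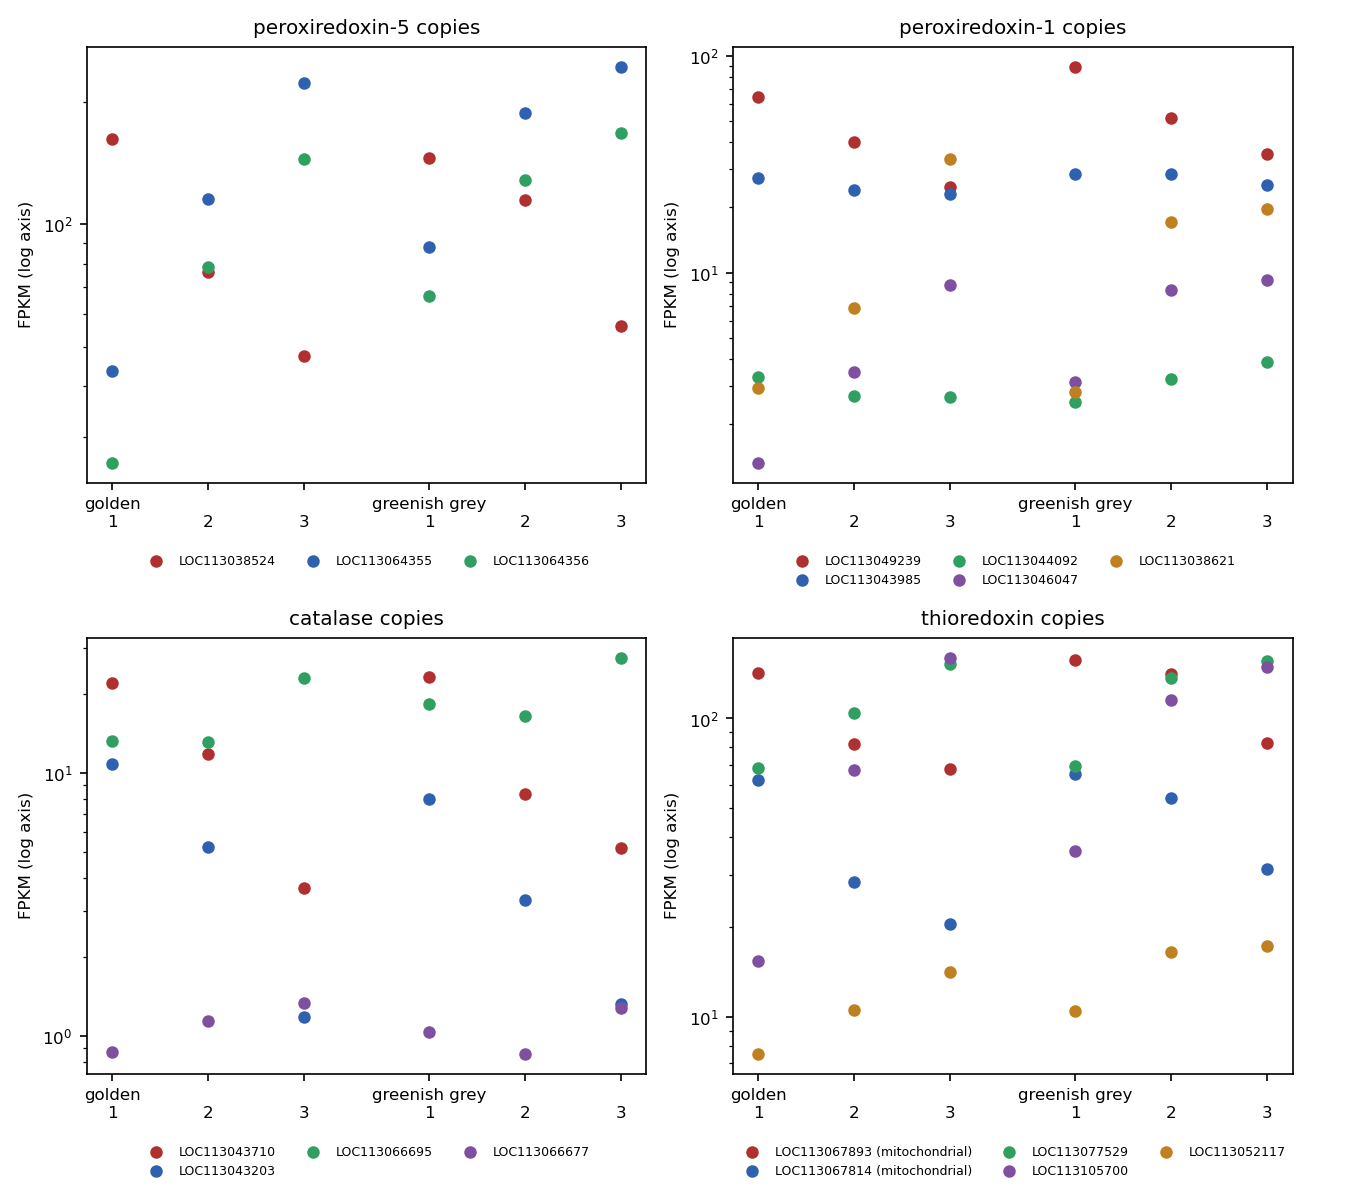
FPKM (log axis) of gene copies of peroxiredoxin-5, peroxiredoxin-1, catalase and thioredoxin in golden libraries 1 to 3 (left) and greenish grey libraries 1 to 3 (right), with a colour for each copy. Copies such as LOC113038524 and LOC113064355 take opposite orders over the libraries in both colours.

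Superoxide dismutases were abundant in both colours. The mitochondrial manganese enzyme LOC113120790 had 324, 227 and 142 FPKM in golden libraries, against 304, 298 and 204 FPKM in greenish grey libraries. The groups overlapped, and the log2 fold change was 0.0027 ± 0.53 (SE, n = 3 each, edgeR). The cytosolic copper-zinc enzyme LOC113109852 had 194, 133 and 122.9 FPKM in golden libraries, against 191, 166 and 122 FPKM in greenish grey libraries. Both enzymes were highest in the libraries numbered 1 and lowest in those numbered 3. Of the 6 tested superoxide dismutases 5 had a log2 fold change above 0, the highest being 0.59 ± 0.52 (SE) for LOC113054302, and none had an unadjusted p under 0.05. The other 1 had a log2 fold change below 0, as had 46.8% of all genes tested.

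A low extracellular superoxide dismutase copy, LOC113106419, had 0, 0 and 0 counts in golden libraries, against 88, 23 and 6 counts in greenish grey libraries. Against a floor of 3 counts in each golden library, the golden mean was at least 13.5-fold below the greenish grey mean. Most of the greenish grey counts came from library 1, and library 3, with 6 counts, lay near the floor. The level of this copy in greenish grey skin was 1.16, 0.235 and 0.0583 FPKM, below the limit for testing. The expressed extracellular copies LOC113095012 and LOC113071248 lay higher, with 8.63, 13.1 and 8.397 FPKM in golden, against 9.81, 6.95 and 7.55 FPKM in greenish grey libraries for LOC113095012, and 5.899, 5.95 and 3.62 FPKM in golden, against 5.74, 3.11 and 3.53 FPKM in greenish grey libraries for LOC113071248.

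Catalase, the peroxisomal enzyme that splits hydrogen peroxide, had its highest mean in LOC113066695, with 13.2, 13.1 and 22.96 FPKM in golden libraries, against 18.3, 16.5 and 27.4 FPKM in greenish grey libraries. The golden library was lower at each number, and the log2 fold change was -0.22 ± 0.29 (SE, n = 3 each, edgeR, unadjusted p = 0.48). Its level was highest in the libraries numbered 3, whereas the copies LOC113043710 and LOC113043203 on chromosome 25 were highest in those numbered 1 and lowest in those numbered 3. LOC113043710 had 22.1, 11.9 and 3.67 FPKM in golden libraries, against 23.3, 8.34 and 5.19 FPKM in greenish grey libraries. LOC113043203 had 10.9, 5.24 and 1.19 FPKM in golden libraries, against 7.99, 3.304 and 1.33 FPKM in greenish grey libraries. LOC113074842, a pseudogene in the annotation and among the 5 most variable members, had 1.49, 0 and 0.185 FPKM in golden, against 3.98, 1.05 and 0.2203 FPKM in greenish grey libraries, and its log2 fold change of -1.37 ± 1.71 (SE) was 0.22 without greenish grey replicate 1.

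Among glutathione peroxidases, 4 of 14 members were tested and 6 had no count in any library. Among these members glutathione peroxidase 4, which reduces lipid peroxides in membranes, was the most abundant. Its copy LOC113064882 (4a), a transcribed pseudogene in the annotation, had 135, 171 and 63.3 FPKM in golden libraries, against 98.4, 118 and 61.9 FPKM in greenish grey libraries (log2 fold change 0.60 ± 0.54, SE, n = 3 each, edgeR, unadjusted p = 0.305). The golden library was the higher at each number, and the groups overlapped. Glutathione peroxidase 1, the general cytosolic enzyme, lay the other way from LOC113064882: LOC113110911 had 74.9, 53.5 and 91.6 FPKM in golden libraries, against 107, 112 and 117 FPKM in greenish grey libraries, without overlap (log2 fold change -0.46 ± 0.31, unadjusted p = 0.187, edgeR). Genes named phospholipid hydroperoxide glutathione peroxidase fell outside the product names used for members. Of these, LOC113045245 had 200, 115 and 95.5 FPKM in golden libraries, against 156, 178 and 103 FPKM in greenish grey libraries. Its log2 fold change was 0.14 (unadjusted p = 0.794, edgeR) and 0.017 with the replicate block.

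Glutathione peroxidase 2 is known from epithelia. Its copy LOC113050456, a pseudogene in the annotation and among the 5 most variable members, had 0, 1.15 and 4.34 FPKM in golden libraries, against 0, 4.57 and 7.51 FPKM in greenish grey libraries, and it was at 0 in both libraries numbered 1. The log2 fold change was -1.11 ± 1.91 (SE, n = 3 each, edgeR, unadjusted p = 0.581) and -1.29 with the replicate block (unadjusted p = 0.0496). Without the block it was -2.58 when golden replicate 3 was left out and -0.33 when greenish grey replicate 3 was. The copy LOC113041242 of glutathione peroxidase 7 had 0, 0 and 0 counts in golden libraries, against 6, 27 and 10 counts in greenish grey libraries. Against a floor of 3 counts in each golden library, the golden mean was at least 3.84-fold below the greenish grey mean. The abundant copy, LOC113041382, had 5.82, 3.85 and 3.39 FPKM in golden libraries, against 6.86, 8.17 and 5.37 FPKM in greenish grey libraries, which overlapped.

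Enzymes that make, recycle or break down glutathione, taken as a class, mostly had log2 fold changes above 0. This held for 12 of 15 tested members, with a class median of 0.25. The other 3 had a log2 fold change below 0, as had 46.8% of all genes tested. None of the 15 had an unadjusted p under 0.05 in edgeR without the replicate block. The catalytic subunit of glutamate--cysteine ligase, which sets the rate of synthesis, had 11.6, 20.2 and 17.8 FPKM in golden libraries, against 13.4, 14.6 and 17.8 FPKM in greenish grey libraries for its main copy LOC113057356 (log2 fold change 0.24 ± 0.24, SE, n = 3 each). All 4 tested copies of its catalytic and regulatory subunits had log2 fold changes above 0, from 0.24 to 0.58.

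Glutathione synthetase adds glycine in the last step. LOC113040902 (chromosome 23, 35701 to 42627) had 1.34, 4.42 and 6.11 FPKM in golden libraries, against 1.205, 2.69 and 3.74 FPKM in greenish grey libraries. The golden library was the higher at each number while the groups overlapped. The log2 fold change was 0.72 ± 0.51 (SE, n = 3 each, edgeR, unadjusted p = 0.207) and 0.67 with the replicate block (unadjusted p = 0.0237), and this was the only member with a golden level above greenish grey at that threshold.

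Enzymes that break glutathione down included the most abundant of the class. Glutathione-specific gamma-glutamylcyclotransferase 1, also known as Chac1, had 198, 289 and 256 FPKM in golden libraries, against 144, 264 and 253 FPKM in greenish grey libraries for LOC113063007 (log2 fold change 0.33 ± 0.34, SE, n = 3 each). Its copy LOC113063140, also on chromosome 45, had 139, 224 and 177 FPKM in golden libraries, against 111, 223 and 185 FPKM in greenish grey libraries. Both pairs of groups overlapped. Glutathione hydrolases, or gamma-glutamyltransferases, cleave glutathione outside the cell. Glutathione hydrolase 5 varied strongly by number in LOC113054553, with 1.78, 4.39 and 24.5 FPKM in golden libraries, against 1.51, 5.29 and 23.2 FPKM in greenish grey libraries. The other tested copy, LOC113110268, was lower in golden skin at each number, with 0.643, 0.772 and 2.18 FPKM in golden libraries, against 1.13, 1.99 and 3.502 FPKM in greenish grey libraries (log2 fold change -0.79 ± 0.50, SE, n = 3 each, edgeR, unadjusted p = 0.162, and 0.0177 with the replicate block). It was -1.31 without golden replicate 3 and -0.37 without greenish grey replicate 3.

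Glutathione reductase, which returns oxidised glutathione to its reduced form, differed by copy. LOC113114128 had 3.08, 5.77 and 9.38 FPKM in golden libraries, against 3.83, 6.67 and 7.56 FPKM in greenish grey libraries. LOC113075392 had 1.56, 1.93 and 3.73 FPKM in golden libraries, against 2.801, 3.81 and 4.54 FPKM in greenish grey libraries, lower in golden skin at each number (log2 fold change -0.52 ± 0.30, SE, n = 3 each, edgeR, unadjusted p = 0.131). LOC113081213 was low and overlapped in FPKM, though not in counts normalised by library (0.896, 1.21 and 1.41 FPKM in golden, against 1.28, 1.62 and 1.51 FPKM in greenish grey libraries).

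Glutathione S-transferases were the largest class, with 35 members of which 23 were tested, and 17 of these had a log2 fold change below 0 (class median -0.22). Over all genes tested 46.8% had one below 0. None of the 23 had an unadjusted p under 0.05 in edgeR without the replicate block. Together they summed to 278 ± 72.7 FPKM in golden and 358 ± 53.3 FPKM in greenish grey skin (SD, n = 3 each), and the sums overlapped. The most abundant, LOC113113088 (glutathione S-transferase 3-like), had 33.6, 47.7 and 42.9 FPKM in golden libraries, against 50.4, 82.8 and 37.3 FPKM in greenish grey libraries, which overlapped. The class P enzyme LOC113047821 did not overlap, with 27.5, 34.99 and 42.8 FPKM in golden libraries, against 45.2, 52.9 and 50.4 FPKM in greenish grey libraries (log2 fold change -0.37 ± 0.21, SE, n = 3 each, edgeR, unadjusted p = 0.123).

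All 3 tested theta-3 copies had log2 fold changes below 0. LOC113038770 (chromosome 21, 17884459 to 17886961) had 14.7, 29.3 and 48.2 FPKM in golden libraries, against 31.1, 59.6 and 59.01 FPKM in greenish grey libraries, with a log2 fold change of -0.62 ± 0.36 (SE, n = 3 each, edgeR, unadjusted p = 0.137, and 0.0218 with the replicate block). LOC113072529 had 2.74, 0.701 and 0.234 FPKM in golden libraries, against 4.47, 2.99 and 0.443 FPKM in greenish grey libraries, with a log2 fold change of -1.09 under the block (unadjusted p = 0.0381, edgeR) and -0.81 without it (unadjusted p = 0.521). Without the block it was -2.501 when golden replicate 1 was left out and -0.094 when greenish grey replicate 1 was. In both copies the golden library was the lower at each number, and the groups overlapped.

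The kappa class, found in mitochondria and peroxisomes, had 5 tested copies, 3 of them side by side on chromosome 16 with gaps of 3219 and 5111 bases. The 3 neighbours were all highest in the libraries numbered 1. So was LOC113079776, whose chromosome is unknown, in counts normalised by library but not in FPKM. It had 1.56, 1.23 and 1.11 FPKM in golden libraries, against 2.16, 2.02 and 2.06 FPKM in greenish grey libraries. LOC113116053 had 49.3, 18.7 and 13.9 FPKM in golden libraries, against 58.6, 38.5 and 21.8 FPKM in greenish grey libraries. LOC113116054 had 3.62, 0.448 and 0 FPKM in golden libraries, against 2.496, 0.599 and 0 FPKM in greenish grey libraries, and was at 0 in both libraries numbered 3. Its log2 fold change of 0.68 ± 2.09 (SE) was -2.20 without golden replicate 1. A copy elsewhere, LOC113099623, was low and did not overlap between the colours (0.569, 1.03 and 0.653 FPKM in golden, against 1.71, 1.43 and 1.301 FPKM in greenish grey libraries, log2 fold change -0.86 ± 0.42, unadjusted p = 0.08198, edgeR).

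Glutaredoxins, which reduce disulfides with glutathione, were led by glrx (glutaredoxin-1), with 28.05, 64.7 and 164 FPKM in golden libraries, against 51.2, 120.2 and 181 FPKM in greenish grey libraries. The golden library was the lower at each number, and the spread between numbers was wider than that between colours (log2 fold change -0.40 ± 0.59, SE, n = 3 each, edgeR, unadjusted p = 0.524, and 0.0661 with the replicate block). The other 8 tested glutaredoxins, among them the iron-sulfur assembly factor glutaredoxin-related protein 5 in 3 copies, had log2 fold changes between -0.14 and 0.33.

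Thioredoxins are the small electron donors of peroxiredoxins. LOC113077529, the most abundant, had 68.2, 104 and 152 FPKM in golden libraries, against 69.3, 136 and 156 FPKM in greenish grey libraries (log2 fold change -0.03 ± 0.33, SE, n = 3 each). LOC113105700 was lowest in the libraries numbered 1 and highest in those numbered 3 (15.4, 67.2 and 159.7 FPKM in golden, against 35.99, 116 and 149 FPKM in greenish grey libraries). The mitochondrial thioredoxin LOC113067893 took the opposite order (142, 81.97 and 67.97 FPKM in golden, against 157, 141 and 82.7 FPKM in greenish grey libraries).

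The mitochondrial thioredoxin reductase txnrd2 was likewise highest in the libraries numbered 1, with 57.2, 12.4 and 11.5 FPKM in golden libraries, against 48.7, 20.1 and 11.6 FPKM in greenish grey libraries (log2 fold change 0.27 ± 0.97, SE, n = 3 each). The cytoplasmic reductase LOC113051002 had 14.7, 19.9 and 26.7 FPKM in golden libraries, against 13.4, 22.7 and 23.3 FPKM in greenish grey libraries, and was lowest in the libraries numbered 1. Thioredoxin-interacting protein, which binds thioredoxin and restrains glucose uptake, was the most abundant of all members, with 341, 385 and 328 FPKM in golden libraries, against 353, 469 and 386 FPKM in greenish grey libraries for LOC113068243. Of its 5 copies, 3 had log2 fold changes from 0.56 to 0.75, each with a standard error of about the same size.

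The 20 tested thioredoxin domain-containing and thioredoxin-related proteins, many of which are disulfide carriers of the endoplasmic reticulum, had a median log2 fold change of 0.011. LOC113063795 (thioredoxin domain-containing protein 15-like) was the most abundant, with 42.7, 57.5 and 39.7 FPKM in golden libraries, against 51.3, 66.9 and 41.4 FPKM in greenish grey libraries. In LOC113060925 (thioredoxin-related transmembrane protein 1-like) the groups did not overlap (1.57, 2.004 and 2.35 FPKM in golden, against 2.44, 2.37 and 3.06 FPKM in greenish grey libraries).

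Counted over all classes on the count scale normalised by library, 9 tested members (7.44%) had every golden library below every greenish grey library, against 5.08% of all genes tested. A single member (0.826%), the catalase copy LOC113066677, had every golden library above, against 4.99% of all genes. In FPKM, which lacks that normalisation, this copy overlapped (0.869, 1.15 and 1.33 FPKM in golden, against 1.04, 0.857 and 1.28 FPKM in greenish grey libraries). The golden library was the lower at all 3 numbers in 24 members (19.8%, against 20% of all genes) and the higher at all 3 in 16 members (13.2%, against 19.5%).

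The replicate number, which the labels do not explain, carried more of the variation than colour. A median of 74.9% of the sum of squares of a tested member lay between numbers and 7.43% between colours. Over all genes tested these medians were 66.3% and 11.01%. There were more numbers than colours, which by itself gives the numbers a larger share in such a split. In 107 of the 121 (88.4%, against 80.0% of all genes) the share between numbers was the greater. In 31 members (25.6%, against 19.3% of all genes) both libraries numbered 1 lay above the 4 others, and in 30 (24.8%, against 19.7%) both lay below. Both libraries numbered 2 lay above the others in 8 (6.61%, against 4.62%) and below in 4 (3.31%, against 6.33%). Both numbered 3 lay above in 24 (19.8%, against 19.7%) and below in 32 (26.4%, against 16.5%). In all, 84 members (69.4%) followed the number in this way, against 63.2% of all genes.

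The 31 members highest in the libraries numbered 1 included many whose product is named mitochondrial, a division made after their values were seen. Of 13 tested members so named, 9 (69.2%) were highest there, among them both copies of manganese superoxide dismutase, both of peroxiredoxin-3, both mitochondrial thioredoxins and txnrd2, and 2 (15.4%), the peroxiredoxin-5 copies LOC113064355 and LOC113064356, were lowest there. Of the other 108, 22 (20.4%) were highest and 28 (25.9%) lowest in the libraries numbered 1. Genes named mitochondrial outside the members were not counted, so this need not be a trait of these enzymes. The libraries numbered 1 also had the highest muscle share of their colour, 13.2% in golden and 8.87% in greenish grey skin, and the highest erythrocyte share. The part of these tissues in the order over the numbers was not tested.

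**Figure D4:**
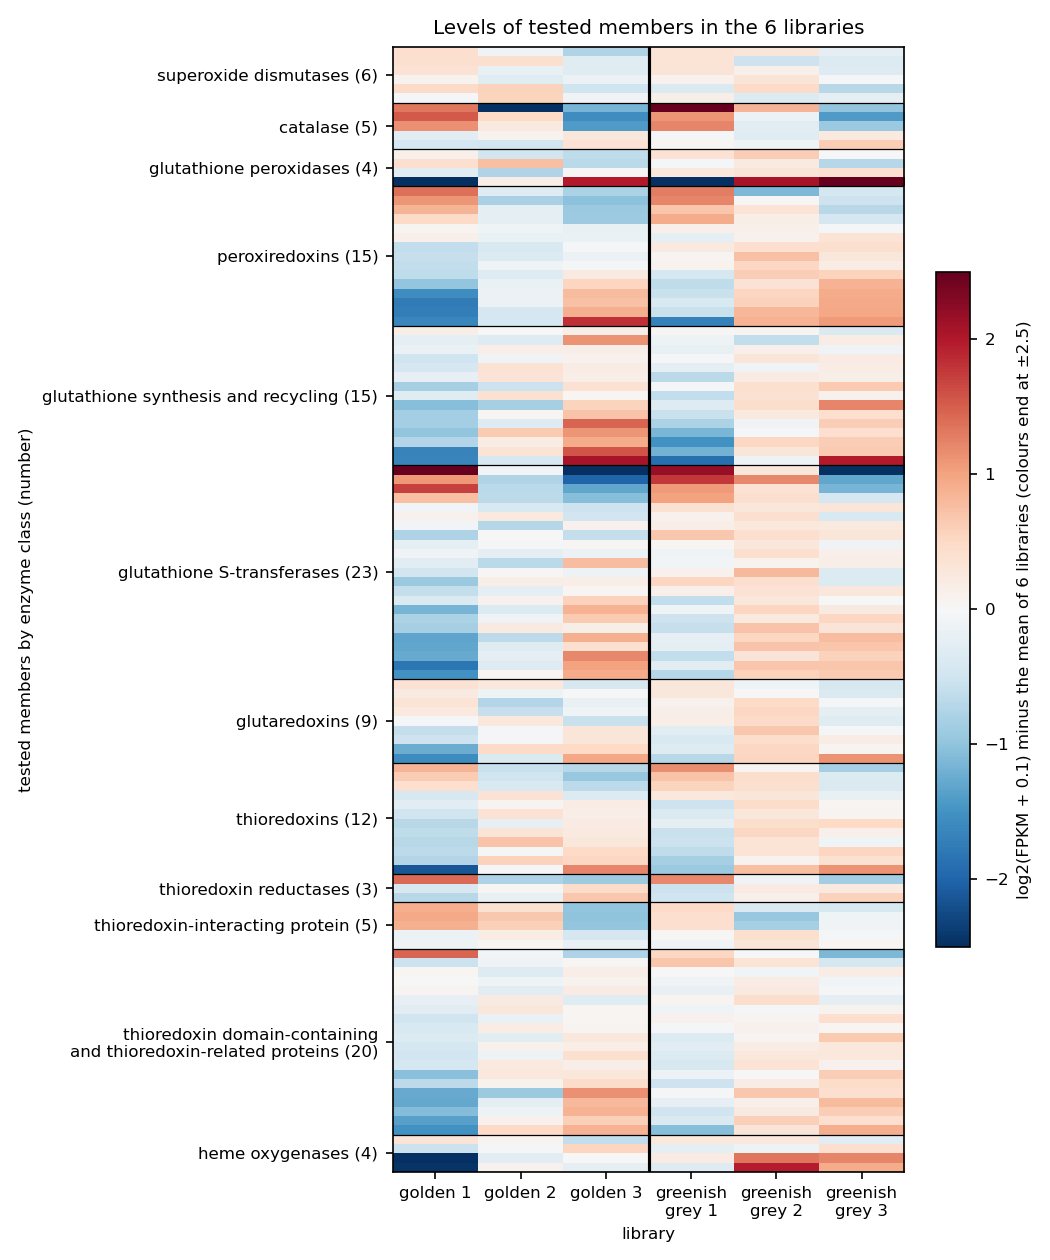
Level of each of the 121 tested members (rows, grouped by enzyme class) in the golden libraries (left of the black line) and the greenish grey libraries (right), as log2(FPKM + 0.1) minus the mean of the 6 libraries. Columns of the same replicate number resemble each other across the black line, and in 107 members the number took more of the sum of squares than the colour.

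Of the 52 members below the limit for testing, 26 had counts. In 4 of these (15.4%) the normalised counts of the groups did not overlap, against 7.6% of all 25007 genes below the limit that had a count. In 3 of the 4 (11.5% of the 26) golden skin was the lower, against 5.19%. Beside LOC113051898, LOC113106419 and LOC113041242, the 4 included ggt7 (glutathione hydrolase 7), with 0.589, 0.742 and 1.17 FPKM in golden libraries, against 0.527, 0.508 and 0.568 FPKM in greenish grey libraries. When all genes with a count were fitted in edgeR, the members past 2-fold whose unadjusted p was under 0.05 numbered 4 of 147 (2.72%), against 3.19% of all genes so fitted. Each had its lower level in golden skin, as had 1.7% of all genes, and they were LOC113046688, LOC113051898, LOC113106419 and LOC113041242.

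Gene copies of the same product differed widely in level. For 37 products at least 2 copies were tested. The main copy stood 30.01-fold above the lowest in glutathione S-transferase kappa 1, 27.9-fold in cytosolic copper-zinc superoxide dismutase, 16.2-fold in the copies named heme oxygenase-like and 1.49-fold in peroxiredoxin-5, comparing mean FPKM over the 6 libraries.

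Related genes outside the product names used above were read from a list of 134 genes, of which 82 were tested. The list was not a single pathway. It held, among others, selenoproteins, sestrins, Keap1 and Nrf2 copies, ferritins, glucose-6-phosphate dehydrogenase, NADPH oxidase organizer and activator genes and xanthine dehydrogenase. At an unadjusted p under 0.05 in edgeR 3 (3.66%) were called, 2 lower (2.44%) and 1 higher (1.22%) in golden skin, against 2.43% and 1.98% of all genes, and 0 had an adjusted p under 0.05. The fit with the replicate block called 7 (8.54%), 5 lower and 2 higher in golden skin, against 13% of all genes. LOC113081249 (selenoprotein W, a small thiol redox protein) had 75.96, 131 and 199 FPKM in golden libraries, against 212, 305 and 267 FPKM in greenish grey libraries, without overlap (log2 fold change -0.87, unadjusted p = 0.0318). LOC113055867 (selenoprotein U 1b) had 5.04, 11.8 and 6.74 FPKM in golden libraries, against 22.3, 23.2 and 11.9 FPKM in greenish grey libraries (log2 fold change -1.19, unadjusted p = 0.0322). LOC113045136, a copy of Keap1, which holds the antioxidant transcription factor Nrf2 in check, had 4.12, 5.18 and 4.61 FPKM in golden libraries, against 2.48, 2.65 and 4.43 FPKM in greenish grey libraries (log2 fold change 0.71, unadjusted p = 0.0455). Other Keap1 copies lay in both directions, with log2 fold changes of 0.45 (LOC113120194), 0.33 (keap1), -0.23 (LOC113041122) and -0.26 (LOC113083543). The Nrf2 copy LOC113109092 had 6.98, 14.4 and 22.8 FPKM in golden libraries, against 13.6, 22.6 and 24.7 FPKM in greenish grey libraries, and the groups overlapped. The more abundant Nrf2 copy LOC113053557 had 41.1, 63.2 and 72.1 FPKM in golden libraries, against 55.5, 64.5 and 63.2 FPKM in greenish grey libraries (log2 fold change 0.05). In the pathway labels of the deposited table, 43 tested members belonged to glutathione metabolism, with a median log2 fold change of -0.028, against 0.060 over all 106 tested genes of that pathway.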

How the data were processed

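The authors deposited, for each of 83088 gene rows and 6 SMARTER mRNA-seq libraries, raw counts and FPKM values (scaled by gene length and library size). The deposited FPKM of 0.0001 stood wherever the count was 0 (237173 values) and was set to 0. The aligner, counting tool, use of strand and handling of multiply matching reads were not given in the sources used here. The submitters' processing notes name GRCm38 and mm10, builds of the mouse genome, but all 83088 rows had the start position of their RefSeq entry on ASM336829v1, a goldfish assembly.

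Counts were fitted with edgeR 4.0.16 (R 4.3.3, two-sided glmQLFTest after glmQLFit, TMM factors) over the 26421 genes averaging 1 FPKM or more, with Benjamini-Hochberg adjustment over all of them. Standard errors were derived from this test, as the absolute log2 fold change divided by the square root of its F statistic. Alternatives were DESeq2 1.42.0, limma 3.58.1 on log2(FPKM + 1) or log2(FPKM + 0.1), other size factors and filters, the replicate number as a block, the muscle share as a covariate and the omission of each library. Deviations of same-numbered libraries from their group means correlated at r = 0.674, 0.262 and 0.696 for numbers 1, 2 and 3, so the numbers were taken as pairs. Those of differently numbered libraries correlated at most at 0.0641. Deviations within a colour sum to 0, so positive correlations of same-numbered libraries by themselves lower the others, which are no separate support for the pairs. Overlap of groups was judged on TMM-scaled CPM for single genes, and without TMM scaling for summed levels and marker shares unless stated.

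Named members were those with a fold over 2 and an unadjusted p under 0.05, the most abundant of each class and the 5 most variable on log2(FPKM + 0.1), and any beyond these were chosen after their values were seen. Members, related genes and marker lists (matched by product name) were chosen with earlier results of these data known.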

Additional observations from a re-analysis of the deposited data

How the results depend on the processing

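Under the alternatives run, 0 members had an adjusted p under 0.05 in each, against 0 in the edgeR fit without the block. The number of members past 2-fold at an unadjusted p under 0.05 was 1 in that fit. It was 2 with DESeq2, 2 with edgeR's own filter on low counts, 4 with no filter, 4 with the replicate block (all lower in golden skin) and 4 with the muscle share as a covariate (2 higher and 2 lower). Leaving out single libraries gave 0 to 5, with 5 when golden replicate 3 was omitted, 2 for greenish grey replicate 1 and 0 for greenish grey replicate 2 or 3. The median log2 fold change of tested members was -0.17 with limma on log2(FPKM + 1) and -0.18 on log2(FPKM + 0.1), where the median over all genes tested was -0.10 and -0.14. Leaving out single libraries gave -0.10 to 0.032. Causes of these shifts were not tested.

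Among named members, the log2 fold change of LOC113120790 turned to -0.097 with upper-quartile factors, -0.27 and -0.28 with the limma fits, -0.13 with the replicate block and -0.57 with the muscle covariate. That of txnrd2 turned to -0.15 and -0.16 with the limma fits, -0.016 with the block and -0.82 with the covariate. The covariate also turned glrx to 0.042, LOC113064355 to 0.0045, LOC113077529 to 0.22, LOC113050456 to 1.48 and LOC113116054 to -2.59. With single libraries left out, the log2 fold change crossed 0 for LOC113120790 (-0.53 to 0.34), txnrd2 (-1.23 to 1.16), LOC113077529 (-0.27 to 0.13), LOC113116054 (-2.20 to 2.60), LOC113063795 (-0.23 to 0.17), LOC113068243 (-0.17 to 0.14), LOC113054553 (-1.39 to 1.53) and LOC113074842 (-4.30 to 0.22). It kept its direction but moved for LOC113046688 (-1.82 to -1.13), LOC113095140 (-2.09 to -0.88), LOC113050456 (-2.58 to -0.33), LOC113072529 (-2.501 to -0.094), LOC113110268 (-1.31 to -0.37), LOC113038770 (-0.92 to -0.38), LOC113064356 (-0.98 to -0.13), LOC113063049 (-0.69 to -0.43) and LOC113040902 (0.42 to 1.06). The log2 fold change also kept its direction for glrx (-1.07 to -0.018), LOC113064355 (-0.87 to -0.045), LOC113113088 (-0.59 to -0.016) and LOC113066695 (-0.38 to -0.049). The same held for LOC113064882 (0.34 to 0.98), LOC113063007 (0.15 to 0.45) and LOC113078596 (-0.59 to -0.53). The causes were not tested.

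With 3 libraries a colour, the median standard error of 0.42 on the log2 scale limits the size of difference that could be detected.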
